A study of Arabidopsis thaliana with 7 samples.

Results

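Very-long-chain wax of the Arabidopsis cuticle is finished along a pair of routes, and the 5 genes described here encode enzymes of both. The alkane branch was represented by CER1 (AT1G02205), CER3 (AT5G57800) and CYP96A15 (AT1G57750), and the alcohol and ester branch by CER4 (AT4G33790) and WSD1 (AT5G37300). They were chosen by locus, through probes whose RefSeq transcript belongs to these loci, and not by a measured value. The 5 genes had 6 probes, among 25347 genes with 34185 matched probes, and all 5 were among the 20509 genes tested.

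The arrays compared 35S:MYB106VP16 seedlings (4 arrays) with wild-type seedlings (3 arrays), both of the Columbia-0 ecotype, as whole seedlings aged 3 weeks. MYB106 belongs to the MIXTA-like MYB factors, which act in the epidermis. In the transgenic plants it was fused to VP16, a viral activation domain, under the 35S promoter of cauliflower mosaic virus, which is active in most plant cells, so its expression was not limited to the epidermis. The number of transgenic lines is not stated in the labels. Both groups were raised at 23 °C on sucrose-containing (1%) MS agar, with 16 h of light and 8 h of darkness, and an RNA sample pooled several seedlings of a crowded plate. Nothing says that replicates came from separately grown batches, so p-values cover the spread between these samples alone, and it may be technical. All transgenic arrays lay on 1 slide with 1 scan and all wild-type arrays on another, so slide and genotype cannot be told apart. In bulk RNA, fewer cells of a type and less RNA per cell cannot be told apart either.

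As background, wax precursors are fatty acyl-CoAs that an elongase complex of the endoplasmic reticulum extends in epidermal cells. CER1 and CER3 act together, with cytochrome b5 as an electron donor, to turn these acyl-CoAs into alkanes, and CYP96A15 (also called MAH1) oxidises alkanes to secondary alcohols and ketones, a product class best known from inflorescence stems. CER4 (also called FAR3) reduces acyl-CoAs to primary alcohols, and WSD1 joins primary alcohols to acyl groups as wax esters. Which enzymes are expressed together sets which wax classes a surface can make.

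The signal of MYB106, the gene used in the transgene, was read first. MYB106 had processed signals of 20111, 28011, 24660 and 15043 on the 35S:MYB106VP16 arrays, against 433, 344 and 504 in wild type. Processed signal is the background-subtracted fluorescence of a probe, in arbitrary units, and cannot be compared between probes. The groups lay far apart for MYB106, 52.1-fold by the fit (limma adjusted p = 2.74e-05), and replicate 4 had the lowest transgenic signal. Probe sequences were not used here, so it is not known whether the probes tell the endogenous transcript from that of the transgene.

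CER1, CER4 and WSD1 rose in 35S:MYB106VP16, CER3 fell, and CYP96A15 was not called. The 2 routes therefore did not separate the genes by direction, since the alkane branch held a gene that rose, a gene that fell and one that was not called. Calls were made at a limma adjusted p under 0.05 over all genes tested, on log2 signal after subtraction of each array's own log2 75th percentile. At this threshold 28.1% of all genes tested were higher and 24.8% lower. Called changes of at least 2-fold, which all 4 called genes reached, were found upward in 5.77% and downward in 4.72% of genes. By the simpler measure of groups that do not overlap, CER1, CER4 and WSD1 lay wholly above wild type and CER3 wholly below it, as 30.4% and 27.2% of all genes did (57.6% in either direction). With 5 genes, these shares are a description.

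**Figure D1:**
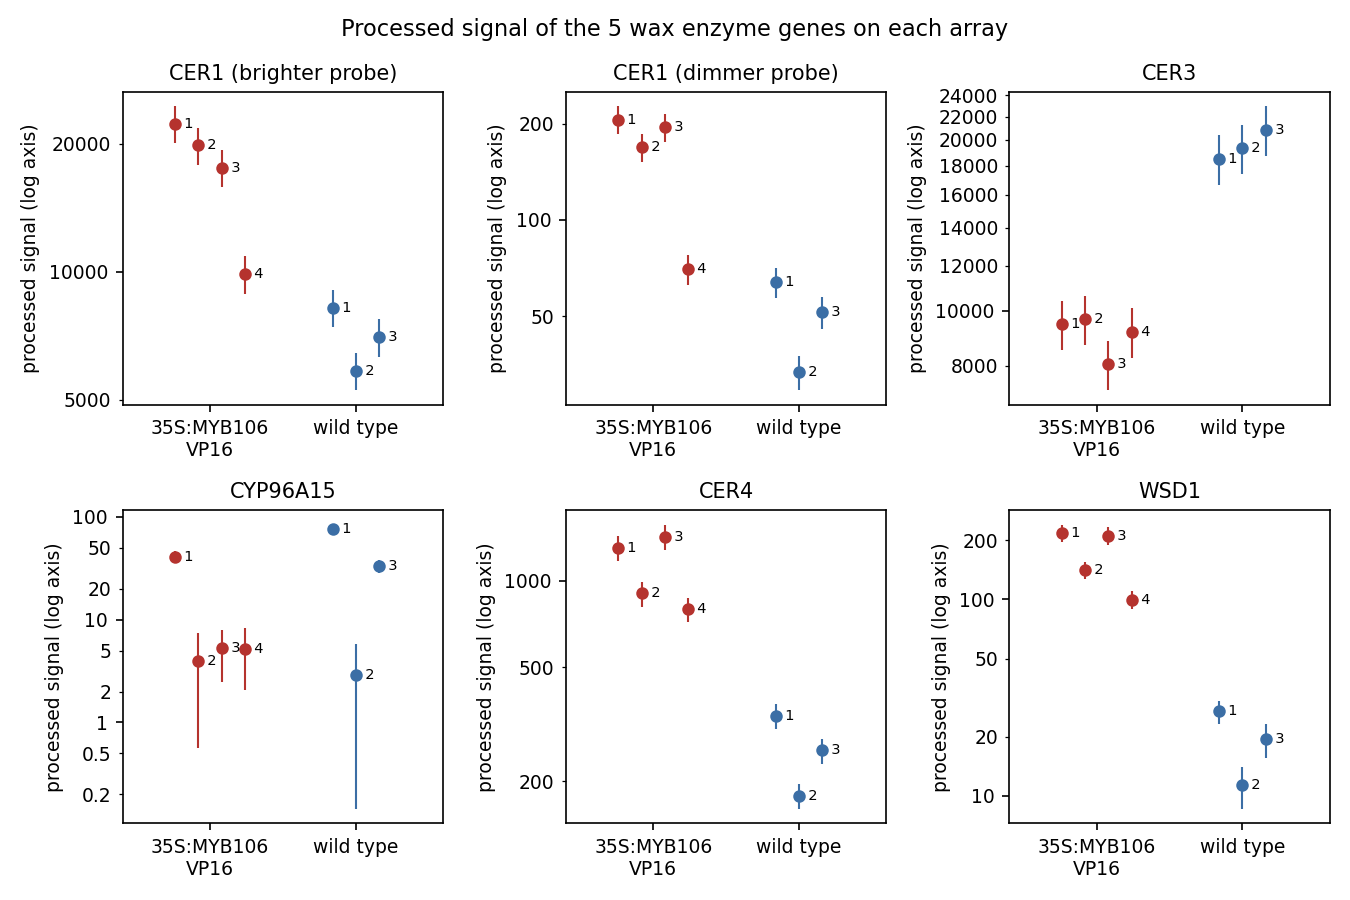
Processed signal (arbitrary units, log axis) of each probe on each array, with 35S:MYB106VP16 in red and wild type in blue; numbers are replicates and bars are the signal error estimated by the scanner software (cut at 95% of the signal). CER1, CER4 and WSD1 lie higher on all 4 transgenic arrays, CER3 lies lower, and CYP96A15 overlaps between 2.88 and 76.0.

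CER1, the enzyme of alkane formation, was read by a pair of probes. Its brighter probe had signals of 22264, 19812, 17574 and 9874 in 35S:MYB106VP16, against 8218, 5844 and 7021 in wild type. Every transgenic array exceeded every wild-type array, and transgenic replicate 4 lay much nearer to wild type than the other 3 did. CER1 was 2.46-fold higher (log2 1.3 ± 0.29 SE; limma adjusted p = 0.00826), a change exceeded upward by 3.68% of genes tested. The dimmer probe gave 206, 169, 195 and 70.2 in 35S:MYB106VP16, against 63.8, 33.4 and 51.5 in wild type, or 3.17-fold (log2 1.67 ± 0.43 SE; limma adjusted p = 0.0135 over all probes, of which 26.8% were called higher and 27.1% lower). Both probes ranked transgenic replicate 4 and wild type replicate 2 lowest in their groups. When the arrays were scaled to the spike-in transcripts, RNAs added at labelling, CER1 stood at log2 0.65 and was no longer called (limma adjusted p = 0.0528).

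CER3, the partner of CER1 in alkane formation, moved the other way. Its signals were 9470, 9654, 8040 and 9189 in 35S:MYB106VP16, against 18526, 19328 and 20853 in wild type. The groups did not overlap, and the arrays within each group lay close together. CER3 fell 2.10-fold, a log2 change of -1.07 ± 0.08 SE (limma adjusted p = 0.000143). Its pooled within-group SD was 0.08 on the log2 scale, against 0.46 for CER1 and a median of 0.14 over all genes tested. The log2 difference of the CER1 and CER3 probes on the same array lay between 0.10 and 1.23 in 35S:MYB106VP16 and between -1.73 and -1.17 in wild type. That difference holds each probe's own brightness and is read only between groups. Its shift of 2.37 ± 0.34 (SE), a 5.15-fold change of CER1 relative to CER3, does not depend on how arrays are scaled by a constant.

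CER4, the alcohol-forming acyl-CoA reductase, had signals of 1303, 905, 1429 and 796 in 35S:MYB106VP16, against 337, 178 and 256 in wild type. The lowest transgenic array was more than double the highest wild-type array. CER4 was 4.45-fold higher (log2 2.15 ± 0.32 SE; limma adjusted p = 0.00155), and 1.25% of genes had a larger upward change.

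WSD1, the wax ester synthase, was dim in wild type. Its signals were 218, 141, 211 and 99.8 in 35S:MYB106VP16, against 26.9, 11.3 and 19.4 in wild type. The groups did not overlap, but wild type replicate 2 was not well above background, and the scanner software put the error of the 3 wild-type signals at 13.6%, 24.1% and 19.3%, against 10.1% to 10.3% in 35S:MYB106VP16. WSD1 was 9.08-fold higher (log2 3.18 ± 0.40 SE; limma adjusted p = 0.000785), and 0.366% of genes had a larger upward change. It reached the 3 arrays well above background needed for testing only with transgenic arrays, since wild type had 2. With no filter on dim probes the rise was the same (limma adjusted p = 0.00173). The size of this rise depended on the background correction, since the normexp method with an offset of 50, which compresses low signals, gave 2.60-fold (log2 1.38; limma adjusted p = 0.00198). For CER4 the same correction gave log2 1.91.

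CYP96A15 was at the limit of detection on most arrays. It had signals of 41.0, 3.99, 5.25 and 5.21 in 35S:MYB106VP16, against 76.0, 2.88 and 33.4 in wild type, and was well above background only on transgenic replicate 1 and on wild type replicates 1 and 3. Each group thus held arrays with and without measurable signal. Its log2 change was -1.21 ± 1.25 (SE), with a 95% interval of -4.14 to 1.72 (limma adjusted p = 0.445). A difference in either direction was not detectable here, and leaving out single arrays moved the value between -2.57 and -0.21 without a call.

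CER4 and WSD1 varied together from array to array. Their pooled within-group SDs were 0.51 and 0.64 on the log2 scale, exceeded by 4.62% and 2.74% of genes tested, while the SD of their difference on the same array was 0.18. The shift of that difference, CER4 minus WSD1, was -1.03 ± 0.13 (SE), the larger rise being that of WSD1. This order depended on the background correction, since WSD1 was near background in wild type and normexp turned it round, with log2 1.38 for WSD1 and 1.91 for CER4. CER1, CER4 and WSD1 were each lowest on transgenic replicate 4 and on wild type replicate 2. MYB106 and SHN1, an ERF activator of cuticle genes, were lowest on the same arrays. So were LACS1 and KCS6 of the chain supply and elongation list, and the flower genes AP1 and AG. KCS6 was named because its signals over these arrays lay close to those of CER1, and SHN1 lay nearest to WSD1. Their shared order is therefore not independent of how near genes were picked. The flower genes AP3, PI and FAR2 were lowest on transgenic replicate 3 and wild type replicate 2. Over all genes tested 6.76% were lowest on transgenic replicate 4 and wild type replicate 2, and of the genes called higher 6.19% were. With 4 and 3 arrays no correlation was computed. Without transgenic replicate 4, CER1 stood at log2 1.56, CER4 at 2.31 and WSD1 at 3.42.

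**Figure D2:**
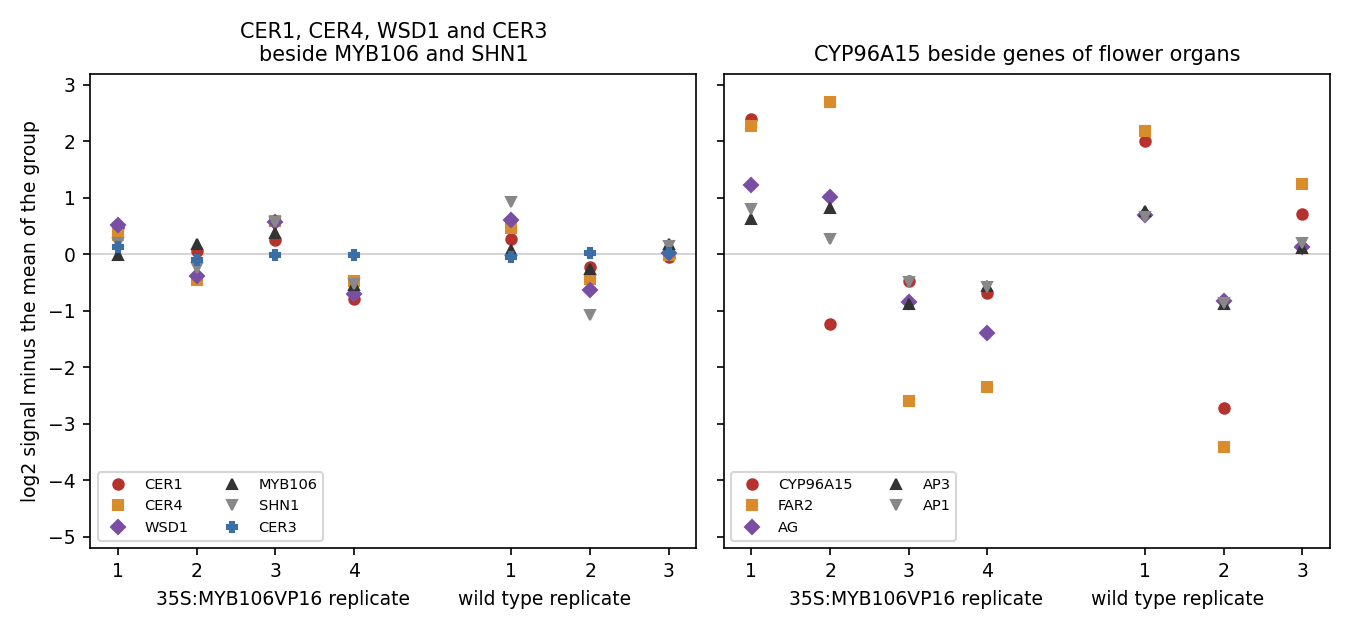
Log2 signal of each gene minus the mean of its group (vertical axis) on each array (horizontal axis, replicate numbers, 35S:MYB106VP16 left). In the left panel CER1, CER4, WSD1, MYB106 and SHN1 are all lowest on transgenic replicate 4 and wild type replicate 2, while CER3 stays within 0.13 of its group means. In the right panel CYP96A15 and the flower genes FAR2, AG, AP3 and AP1 are all lowest in wild type on replicate 2. AG and AP1 are also lowest on transgenic replicate 4.

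Genes of flower organs also differed between arrays of the same group. FAR2 (listed as MS2), a reductase of the same family as CER4 that acts in pollen wall formation, had signals of 314, 506, 10.1 and 13.7 in 35S:MYB106VP16, against 379, 7.8 and 212 in wild type. In wild type this is the order of CYP96A15, with replicate 1 highest and replicate 2 lowest, and CER1, CER4 and WSD1 followed the same order there. In 35S:MYB106VP16 the orders differed, since FAR2 was high on replicates 1 and 2, whereas CYP96A15 was high on replicate 1 alone and CER4 and WSD1 were high on replicates 1 and 3. The floral organ regulators AP1, AP3 and PI were well above background on all arrays. Of the 4 flower markers PI was called higher (2.26-fold) and none lower by its brightest probe, beside 28.1% and 24.8% of all genes tested. AG stood at log2 -1.52 there (limma adjusted p = 0.109), and 1 of its 2 probes was called lower in the fit over all probes. The summed signal of the 4 flower markers, in multiples of the 75th percentile of the array, was 0.996 to 1.74 in 35S:MYB106VP16 and 0.533 to 1.3 in wild type. Most of this sum is PI, the only one of them that rose. AP1 and AP3 stood at log2 -0.39 and -0.66, not called, so the sum does not describe the markers other than PI. The part of these flower genes in the results above was not tested.

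Other markers also gave calls, to be read beside the 28.1% higher and 24.8% lower of all genes tested. In the fit over all probes these shares were 26.8% and 27.1%. Of 4 epidermal markers 2 rose, PDF1 and FDH, and 1 fell, ATML1, with a summed signal of 18.4 to 23.2 in 35S:MYB106VP16 and 17.3 to 17.8 in wild type. FDH had the highest signal of the 4 on each transgenic array, 16932 to 27254, against 12918 to 14512 in wild type. It is listed as KCS10, a name shared with the elongation genes KCS1 and KCS6, so it may not be independent of them. ATML1 stood at log2 -0.74 and PDF2 at -0.14, so the sum does not describe these markers. Of 4 root markers 3 rose, with a summed signal of 1.69 to 2.74 in 35S:MYB106VP16 and 1.06 to 1.61 in wild type. The 4 mesophyll markers were not called by their brightest probes, but in the fit over all probes 6 of 9 probes of LHCB1.3, 2 of 13 of RBCS1A and 1 of 3 of PSBO1 were lower and none higher. PDF2, the epidermal marker without a call, had 1 of 2 probes lower. By brightest probes, 1 of the 3 trichome markers fell, GL1, and 1 of the 3 guard cell markers, KAT1. Every marker was well above background on at least some arrays. The part of these shifts in the changes of the wax enzymes was not tested.

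Outside the 5 enzymes, 72 further wax genes were listed, of which 59 were tested, and 21 rose, CYP96A5 among them, 10 fell and 28 were not called. These are 35.6% higher and 16.9% lower, against 28.1% and 24.8% over all genes tested. The median log2 change of the listed genes was 0.05, against 0.02 over all genes tested. Without wild type replicate 3 the counts were 12 higher and 5 lower. With spike-in scaling they were 4 higher and 32 lower, and only 3 were lower in the authors' series table. No test of the list as a whole was made.

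By count, the upstream steps of chain supply and elongation were the part of this list with the most rises. They also had as many tested genes as the regulators, and more than any other part. By share they lay close to the export genes, of which 2 of 4 rose. Among 17 tested genes there were, by brightest probes, 9 rises, 3 falls and 5 without a call, and the median log2 change was 0.42. These are 52.9% higher and 17.6% lower, beside 28.1% and 24.8% of all genes tested. For some of the rises, probes disagreed in the fit over all probes. KCS5 had 1 probe higher and 1 lower, KCS20 had 1 of 4 higher, LACS2 1 of 2 and LACS1 2 of 3. All probes of PAS2 (2) and CER26 (3) were higher. LACS1, a long-chain acyl-CoA synthetase, had signals of 13305, 12357, 15311 and 9956 in 35S:MYB106VP16, against 5852, 4724 and 6606 in wild type. LACS1 was 2.28-fold higher (limma adjusted p = 0.00274) and LACS2, a synthetase of cutin formation, 2.27-fold (limma adjusted p = 0.000515). KCS6, the main condensing enzyme for wax chains, was 2.05-fold higher (limma adjusted p = 0.00688), with 3 of its 6 probes higher and none lower, and is named also because its profile was close to that of CER1. With spike-in scaling KCS6 was not called (limma adjusted p = 0.16). The falls were small. KCS1, another condensing enzyme, was 1.43-fold lower (limma adjusted p = 0.00283), and did not pass in the authors' series table (0.0593). CER2, which lets the elongase make the longest chains, was 1.33-fold lower (limma adjusted p = 0.0197). It lost this call without wild type replicate 1 (0.0668) or 3 (0.0715), with median scaling (0.0652) or in the authors' series table (0.252).

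The electron donors and relatives of CER1 gave a mixed picture. Of 5 cytochrome b5 genes and 2 loci listed as CER1 relatives, 3 rose, 1 fell and 3 were not called by their brightest probes, although 1 of 2 probes of AT2G37700 was lower. By brightest probes 42.9% were higher and 14.3% lower, beside 28.1% and 24.8% of all genes tested. CB5-C had signals of 2378, 1704, 2846 and 2893 in 35S:MYB106VP16, against 9523, 8653 and 9489 in wild type. This was the largest fall of the listed wax genes, 3.73-fold (limma adjusted p = 0.000848), and the groups did not overlap. CB5-B was 1.73-fold higher (limma adjusted p = 0.00277) and CB5-E 1.42-fold (limma adjusted p = 0.00255), but with spike-in scaling CB5-B was not called and CB5-E stood at log2 -0.14. AT1G02190, the locus beside CER1 on the chromosome, had signals of 134 to 152 in 35S:MYB106VP16 and 130 to 153 in wild type, and was not called (log2 0.12 ± 0.12 SE; limma adjusted p = 0.396).

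Relatives of the other 3 enzymes mostly had no call. In the CYP96A family of P450 enzymes, 6 of 11 genes other than CYP96A15 were tested, 2 rose by their adjusted p and none fell. The 2 rises are 33.3% of those tested, beside 28.1% of all genes tested. CYP96A5 had signals of 87.9, 201, 52.9 and 239 in 35S:MYB106VP16, against 12.5, 3.64 and 3.76 in wild type, where no array was well above background. It thus entered the test only through the group in which it was higher, so its p-value is not given. By detection limit it was at least 9.54-fold higher, while normexp, which compresses such signals, gave 2.64-fold. For this bound, each wild-type array counted at its detection limit, the dimmest signal still well above background, or at the probe's own signal where that was larger. CYP96A9 was 2.09-fold higher (limma adjusted p = 0.0199), with overlapping groups, and lost its call without wild type replicate 2 (0.0612) or 3 (0.0715), with normexp (0.144) or with spike-in scaling (0.149). Whether probes also bind close relatives was not tested.

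In the FAR family, 4 of the 7 reductases other than CER4 were tested and 0 were called by limma, beside 52.9% of all genes tested. Of these 4, 1 had an unadjusted p under 0.05, FAR5 (log2 -0.39; unadjusted p = 0.0332, limma adjusted p = 0.0602). Probes disagreed here, since FAR1 and FAR5 each had a second, dimmer probe that was called lower in the fit over all probes. In the family of WSD1, 5 of 10 other genes were tested, and 1 rose, AT3G49210 (1.34-fold; limma adjusted p = 0.0189). It did not pass without wild type replicate 1 (0.0556) or 3 (0.074), and stood at log2 -0.22 with spike-in scaling. By these brightest probes, CER4 and WSD1 changed by more than the tested relatives in their lists.

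**Figure D3:**
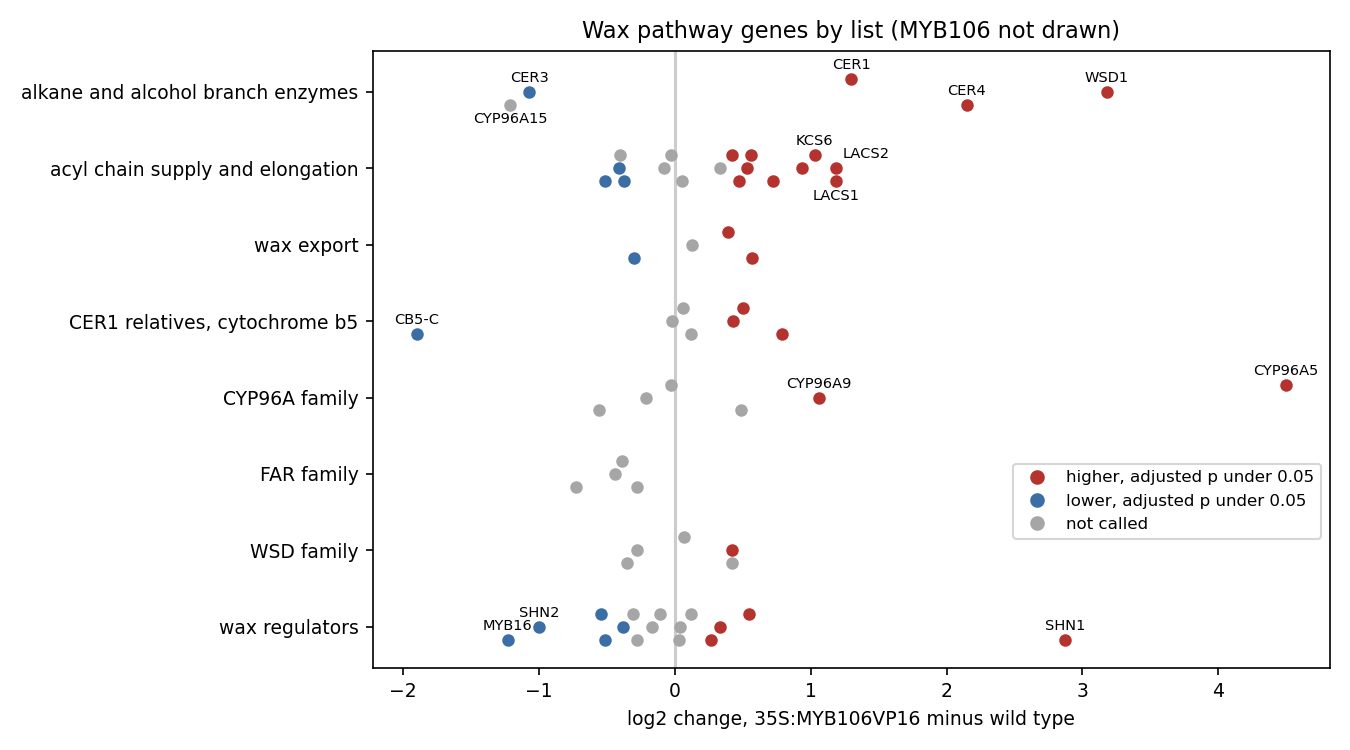
Log2 change, 35S:MYB106VP16 minus wild type (horizontal axis), of each tested gene other than MYB106, which is not drawn, by list; red and blue points passed at a limma adjusted p under 0.05 and grey points did not. WSD1 (3.18), CER4 (2.15), CYP96A5 (4.50 as fitted, against wild-type signal at background) and SHN1 (2.87) lie farthest to the right, and CB5-C (-1.90) lies farthest to the left.

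Of the 4 export genes 2 rose and 1 fell. ABCG12, a wax transporter of the plasma membrane, had a 1.49-fold rise (limma adjusted p = 0.027). The call was lost when any array except transgenic replicate 4 was left out (0.06 to 0.075), and ABCG12 stood at log2 -0.07 with spike-in scaling. LTPG2, a lipid transfer protein anchored to the membrane, was 1.31-fold higher (limma adjusted p = 0.00997), and stood at log2 -0.25 with spike-in scaling. ABCG11, which exports wax and cutin, was 1.23-fold lower (limma adjusted p = 0.0248). It did not pass without transgenic replicate 3 (0.0507), wild type replicate 1 (0.0792) or wild type replicate 3 (0.0692), with median scaling (0.11) or in the authors' series table (0.59).

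Of 17 wax regulators, 5 rose, 5 fell and 7 were not called, and the rises include MYB106, the gene used in the transgene. These are 29.4% higher and 29.4% lower, near the 28.1% and 24.8% of all genes tested. SHN1 had signals of 168, 149, 203 and 110 in 35S:MYB106VP16, against 40.0, 10.1 and 25.3 in wild type. It was 7.30-fold higher (limma adjusted p = 0.00211), with wild type replicate 2 not well above background. Like WSD1, it reached the 3 arrays needed for testing only with transgenic arrays. With no filter on dim probes the rise was the same (limma adjusted p = 0.00421). The size of this rise was 2.35-fold with normexp, and its log2 change was 2.33 to 3.33 when single wild-type arrays were left out. MYB16, the closest homolog of MYB106, was 2.35-fold lower (limma adjusted p = 0.00287), and SHN2, a relative of SHN1, 2.0-fold lower (limma adjusted p = 0.0112). SHN1 was the gene nearest to WSD1 in its profile over the 7 arrays, as described next.

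Profiles were compared by the Euclidean distance between log2 signals over the 7 arrays, each gene centred on its own mean, among 9001 genes with a symbol. The profiles contain the difference between the groups, so near genes share its size, and the measure carries no test. Nearest to WSD1 were SHN1 (distance 0.79), CYP86A4 (0.93), a fatty acid hydroxylase of cutin synthesis, and GPAT6 (0.95), an acyltransferase of cutin synthesis. CYP86A4 was 7.39-fold and GPAT6 7.47-fold higher, and no p-value is given for them here because the choice by profile favours such folds. Nearest to CER4 were GLC (distance 0.51), CAD9 (0.63), named for cinnamyl alcohol dehydrogenases, and CWLP (0.74), a cell wall linker protein, which were 4.70-fold, 5.18-fold and 3.31-fold higher. CER1 lay nearest to LTI65 (distance 0.43), also called RD29B and known for its response to dehydration, BCAT-1 (0.50), a branched-chain aminotransferase, and KCS6 (0.58).

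CER3 had different neighbours. The genes nearest to it were ADG1 (distance 0.14), the small subunit of ADP-glucose pyrophosphorylase in starch synthesis, PTAC16 (0.16), a plastid protein, and GBSS1 (0.17), a granule-bound starch synthase. These were 1.99-fold, 2.17-fold and 2.0-fold lower, a likeness to CER3 that follows from the choice by profile. CYP96A15 had no close profile. Nearest were ACA5 (distance 1.97), a carbonic anhydrase, SWEET3 (2.27), a sugar transporter, and LAP5 (2.86), a polyketide synthase of pollen wall formation, none of them called (limma adjusted p = 0.129 to 0.514). LAP5 had signals of 624, 90.5, 22.2 and 34.1 in 35S:MYB106VP16, against 913, 112 and 1025 in wild type. Like CYP96A15 it was high on transgenic replicate 1 and on wild type replicates 1 and 3, a likeness for which it was chosen. Without wild type replicate 2, ACA5 stood at log2 -2.01 (limma adjusted p = 0.0454), and without transgenic replicate 1, LAP5 and SWEET3 stood at -3.51 and -1.82 (limma adjusted p = 0.0187 and 0.0237).

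The direction of CER1, CER3, CER4 and WSD1 was the same under each of the other settings that gave a value, whereas the calls over all genes shifted with the scaling. Rises made up 53.2% of all calls under the 75th percentile, 66.6% under the median, 76.2% in the authors' series table and 6.76% under spike-in scaling. The median log2 change over all genes was 0.02, 0.14, 0.23 and -0.62 in that order. All 7 bright spike-in transcripts had higher signal on the slide of 35S:MYB106VP16 (log2 0.15 to 0.84), and the labels do not state whether equal amounts were added to both sets. Relative to the median of all genes, WSD1, CER4 and CER1 were higher and CER3 lower. This is the same under each of these scalings by construction, since they differ only by a constant per array.

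**Figure D4:**
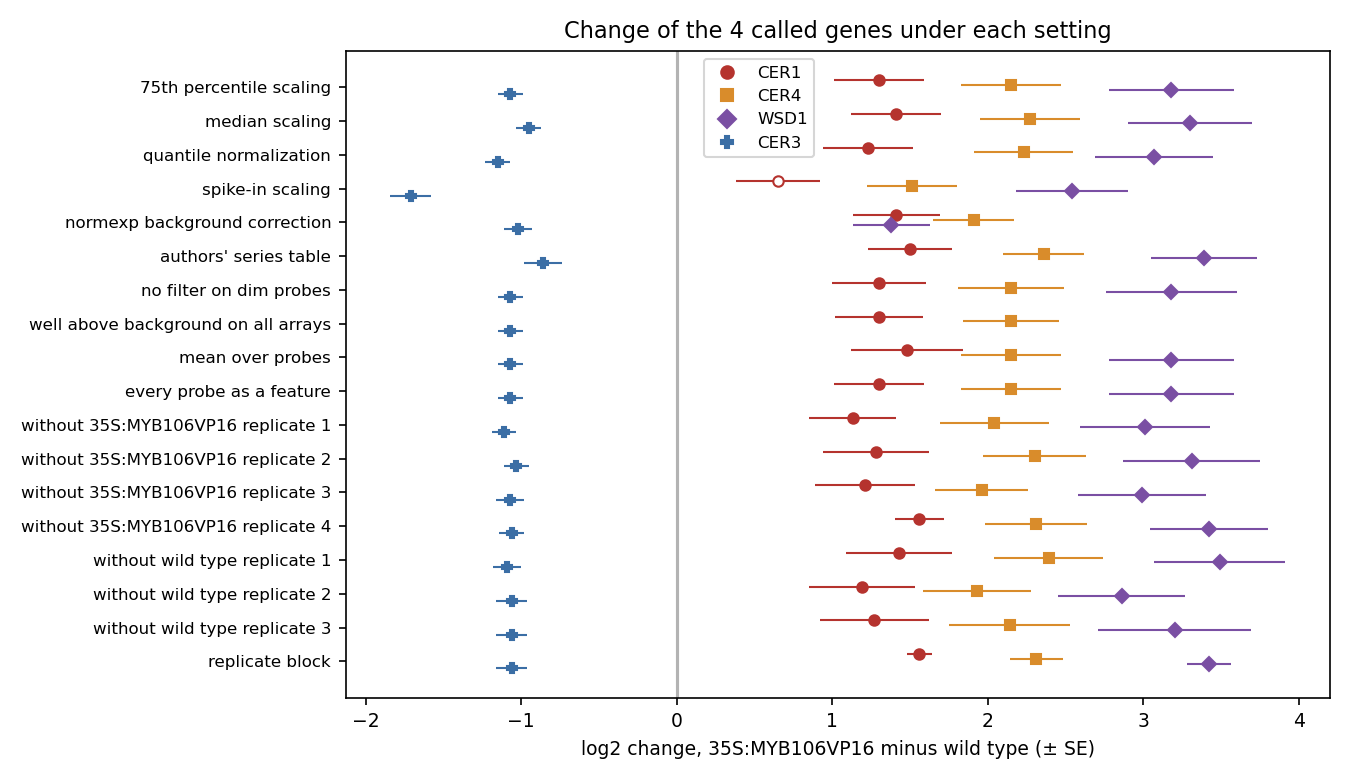
Log2 change ± SE (horizontal axis), 35S:MYB106VP16 minus wild type, of WSD1, CER4, CER1 and CER3 under each setting (vertical axis); open symbols did not pass at a limma adjusted p under 0.05. CER1 is open with spike-in scaling (0.65), WSD1 drops to 1.38 with normexp background correction, and it has no value where a probe had to be well above background on all arrays.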

How the data were processed

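Each of 7 arrays was a single-colour Agilent array with Cy3-labelled RNA. Per the file headers, the authors' processed intensity came from Agilent Feature Extraction 9.1.3.1, which subtracts background. The flags for well above background, saturation and outliers were used as deposited. In the deposited series table the same intensity stands divided by about 1042.5 (35S:MYB106VP16) or 1237.6 (wild type), linear and not centred, with column medians of 0.331 to 0.438; the origin of these constants is unknown.

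Outlier spots were removed and spots of a probe averaged, and log2 was taken relative to the array's 75th percentile, which was 2213 to 2858 in 35S:MYB106VP16 and 2492 to 2677 in wild type; 73.5% to 76.3% of probes were well above background and none was saturated. The number of arrays limits the precision. Probes were named through the RefSeq table of TAIR10.1 (34185 of 36022 accessions); the files name no genome build, so coordinates are not given, and probe and promoter sequences were not used here. A gene was its brightest probe by mean, tested where well above background on at least 3 arrays (20509 genes), with limma 3.58.1 (R 4.3.3) and genotype as the term. The fit was tested on simulated data.

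Members and lists were chosen with earlier results of these data known. Named are the members, MYB106, up to 2 rises and 2 falls per list, and the 3 nearest profiles per member; markers, FAR2, FAR5, KCS6 and loci beside members were named after their values were seen. Replicate numbers were not treated as pairs. Alternatives were median, quantile and spike-in scaling (7 transcripts with mean signal above 100), normexp, the series table, other probe filters and summaries, leaving out arrays and a replicate block.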

Additional observations from a re-analysis of the deposited data

Results flagged for a closer look

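In 35S:MYB106VP16, 37 values of named genes were examined for an array far from the other 3, and 2 had one, while chance gives about 1 in 20. On the scale of log2 signal less the 75th percentile, replicate 4 gave ABCG12 a value of 0.86, and the other 3 arrays 1.46 to 1.57. For LTI65 replicate 4 gave -5.51 and the others -4.84 to -4.71. Groups of 3 wild-type arrays were not examined in this way. None of the 5 wax enzymes had such an array by this measure, although CER1 was lowest on the same transgenic replicate.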

How the results depend on the processing

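Of 83 values of the 5 enzymes under other settings, 82 kept their direction and their side of the threshold, and CER1 lost its call with spike-in scaling (log2 0.65; limma adjusted p = 0.0528). Of 523 values of 31 other named genes, 487 stayed on their side of the threshold, 26 lost a call, 6 gained one and 4 called changes turned, these with spike-in scaling: ABCG12 (-0.07), AT3G49210 (-0.22), CB5-E (-0.14) and LTPG2 (-0.25). ACA5, which was not called, stood at 0.01 without wild type replicate 1, against -0.81 over all arrays. That scaling and those of the median and the authors' series table shift all genes alike by construction; the cause of other changes was not tested. Genes higher and lower, 5768 and 5083, became 1056 and 14574 with spike-in scaling and 8915 and 8997 over all probes, where more features were tested, and 2277 were lower in the authors' series table. Listed wax genes higher and lower, 21 and 10, became 4 and 32 with spike-in scaling, while 5 were lower with median scaling and 3 in the authors' series table. Leaving out single arrays gave 4226 to 5498 genes higher and 3877 to 5122 lower, and 12 to 22 wax genes higher and 5 to 11 lower, lowest without wild type replicate 3; log2 changes were 1.13 to 1.56 for CER1, -1.11 to -1.03 for CER3, 1.93 to 2.39 for CER4 and 2.86 to 3.49 for WSD1. The deviations of same-numbered samples correlated at 0.179, -0.025 and -0.082. Differently numbered samples were not compared, so these values cannot settle whether the numbers mark pairs. With the replicate number as a block, in which transgenic replicate 4 has no partner and does not enter the change, CER1 stood at 1.56, CER3 at -1.06, CER4 at 2.31, CYP96A15 at -0.98 and WSD1 at 3.42, with 4596 genes higher and 4470 lower. No slide block could be fitted, because slide and genotype coincide. CYP96A15 and WSD1 have no value where detection on all arrays was required. Signal near background limits CYP96A15, and the size of the rises of WSD1, SHN1 and CYP96A5.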

Other observations

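The protein-coding loci on either side of each wax enzyme gene, in the gene order of TAIR10.1, were looked up after the other values had been seen. Of 10 such loci 8 were tested, 4 rose and 2 fell, beside 52.9% of all genes called in either direction, and none overlapped the enzyme gene. AT4G33800, next to CER4, had signals of 723, 723, 1031 and 607 in 35S:MYB106VP16, against 172, 145 and 179 in wild type, a 4.72-fold rise (limma adjusted p = 0.000368) close to the 4.45-fold of CER4. AT5G57790, next to CER3, had signals of 299, 378, 223 and 264 in 35S:MYB106VP16, against 569, 569 and 633 in wild type, and was 2.01-fold lower (limma adjusted p = 0.000514), beside 2.10-fold for CER3. The loci on the other sides differed more from these enzyme genes. AT4G33780, beside CER4, was 1.69-fold higher (limma adjusted p = 0.000551). TET15, beside CER3, stood at log2 0.51, opposite to CER3, and was not called (limma adjusted p = 0.0514). The neighbours of WSD1 changed less, AT5G37290 1.33-fold upward and AT5G37310 1.39-fold downward. AT1G02210, on the far side of CER1 from AT1G02190, had a signal of 686 on wild type replicate 1 and of 2.78 to 5.51 on the 6 other arrays.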
